A study of Mus musculus with 14 samples.

Results

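The 33 genes described here are mouse counterparts of human genes that are linked to autism and other neurodevelopmental disorders when damaged. They were taken by symbol from a list of chromatin, RNA and signalling regulators, and they are 33 of the 24100 genes in the count table. All 33 were found in the table, and all 33 passed the filter on low counts in every comparison below. By what their proteins do, they fall into 5 chromatin remodellers and their partners, 7 histone-modifying enzymes and readers, 7 DNA-binding factors and transcription co-regulators, 3 RNA and translation regulators, 4 members of the ubiquitin system, 3 regulators of kinase and growth signalling, and 4 membrane, adhesion and cytoskeleton proteins. They lie on 16 chromosomes, and 3 of them (Fmr1, Upf3b and Iqsec2) are on the X chromosome.

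The libraries came from cerebella of mice at postnatal day 21 (P21) that were Astn2 wild type (WT) or Astn2 knockout (KO). Astn2 encodes astrotactin 2, a membrane protein of neurons, and the labels do not name the knockout allele. All of the mice, WT and KO alike, carried the Pcp2-Egfp-L10a transgene, in which the Purkinje cell promoter Pcp2 drives a ribosomal protein, L10a, tagged with green fluorescent protein. In translating ribosome affinity purification (TRAP) the tagged ribosomes are pulled out of whole-cerebellum lysate with antibodies to the tag and their RNA is sequenced, and 3% of the cleared lysate, set aside before the pull-down, is the input. There were 4 input WT libraries (1 female, 3 male), 3 input KO libraries (2 female, 1 male), 3 TRAP WT libraries (1 female, 2 male) and 4 TRAP KO libraries (2 female, 2 male). The TRAP fraction therefore weights RNA on ribosomes of Purkinje cells, the output neurons of the cerebellar cortex, and the input weights RNA of the whole cerebellum, which is mostly granule cells. In such bulk samples, fewer cells of a type and less RNA per cell cannot be told apart.

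As background, many of the genes act on how other genes are read. Remodellers of the CHD and BAF families use ATP to move nucleosomes, and methyltransferases and demethylases write and erase methyl groups on histone tails. DNA-binding factors such as MEF2C and TCF4 then recruit these machines to chosen genes. Other members act after transcription. FMRP, the product of Fmr1, binds messenger RNAs and represses their translation at synapses, the ubiquitin ligases UBE3A and TRIP12 mark proteins for degradation, and the TSC1 and TSC2 proteins together switch off RHEB and so hold back the growth kinase mTOR. Loss of Tsc1 or Tsc2 in Purkinje cells is a known mouse model of autism-related behaviour.

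The smallest library held 18.8 M counts (M, 1e6) and the largest 54.2 M. Levels are given as counts per 1e6 counts (CPM) with TMM factors, which correct for differences in composition. Astn2 itself stood at 94.4 ± 6.90 CPM (mean ± SD, n = 4) in input WT and 0.885 ± 0.127 CPM (n = 3) in input KO, and at 129.6 ± 14.8 CPM (n = 3) in TRAP WT and 1.52 ± 0.447 CPM (n = 4) in TRAP KO, so every library fits its genotype label. All 12 Purkinje cell markers were enriched by TRAP in WT, and their summed level rose from 6901 to 7373 CPM in input WT to a range of 88842 to 101078 CPM in TRAP WT. All 10 granule cell, 10 oligodendrocyte and 8 microglia markers were lower in TRAP, but none of these sums was at 0, and the granule cell sum was still 1271 to 1724 CPM in TRAP WT against 6214 to 6480 CPM in input WT. Of 10 astroglia markers 8 were lower, but Aldoc and Hopx were higher, and the median log2 fold change over the 10 was -1.72. The summed level of the list rose from 2876 to 3233 CPM in input WT to a range of 7980 to 12160 CPM in TRAP WT. Most markers of the list did not follow this rise. All 8 endothelial and 7 of 8 inhibitory interneuron markers were lower, with 1 interneuron marker higher, and of 6 choroid plexus markers 1 was higher and 1 lower. All 6 RNAs that stay in the nucleus were lower, with a sum of 119 to 284 CPM in TRAP WT against 2189 to 2866 CPM in input WT.

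Libraries of TRAP differed from each other more than libraries of input, and 1 of them stood apart. The median absolute log2 difference over all genes between TRAP WT replicate 3 and replicates 1 and 2 was 0.48 and 0.54, against 0.25 between replicates 1 and 2, and 24% of genes differed more than 2-fold between replicates 2 and 3. TRAP WT replicate 3 was the library farthest from its group for 24 of the 33 genes (72.7%, against 55.9% of all genes). TRAP KO replicate 4 stood apart less clearly, with 8.71% to 11.1% of genes differing more than 2-fold from replicates 1 to 3. That share was 5.29% to 7.01% among TRAP KO replicates 1 to 3, but 8.75% between TRAP WT replicates 1 and 2. Adnp shows the pattern at its clearest, at 11.9, 4.09 and 52.9 CPM in TRAP WT replicates 1 to 3 and at 12.4, 27.3, 18.1 and 47.9 CPM in TRAP KO replicates 1 to 4. Both of the libraries that stand apart are the highest of their group for Adnp. Upf3b went the other way, at 30.9, 52.9 and 3.54 CPM in TRAP WT, and was lowest in the same library. Arid1b was at 49.0, 52.2 and 100.5 CPM, and Tcf4 at 68.8, 105.7 and 25.5 CPM. These 4 genes, and Foxp1 in the plot of TRAP libraries by replicate, were picked after their values were seen. The median coefficient of variation (SD as a percentage of the mean) over the 33 genes was 21.4% in TRAP WT and 10.2% in TRAP KO, against 5.41% in input WT and 6.49% in input KO. Where a TRAP against input call changed without these libraries, or its value moved by more than 1.5 times, the value without them is given below.

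**Figure D1:**
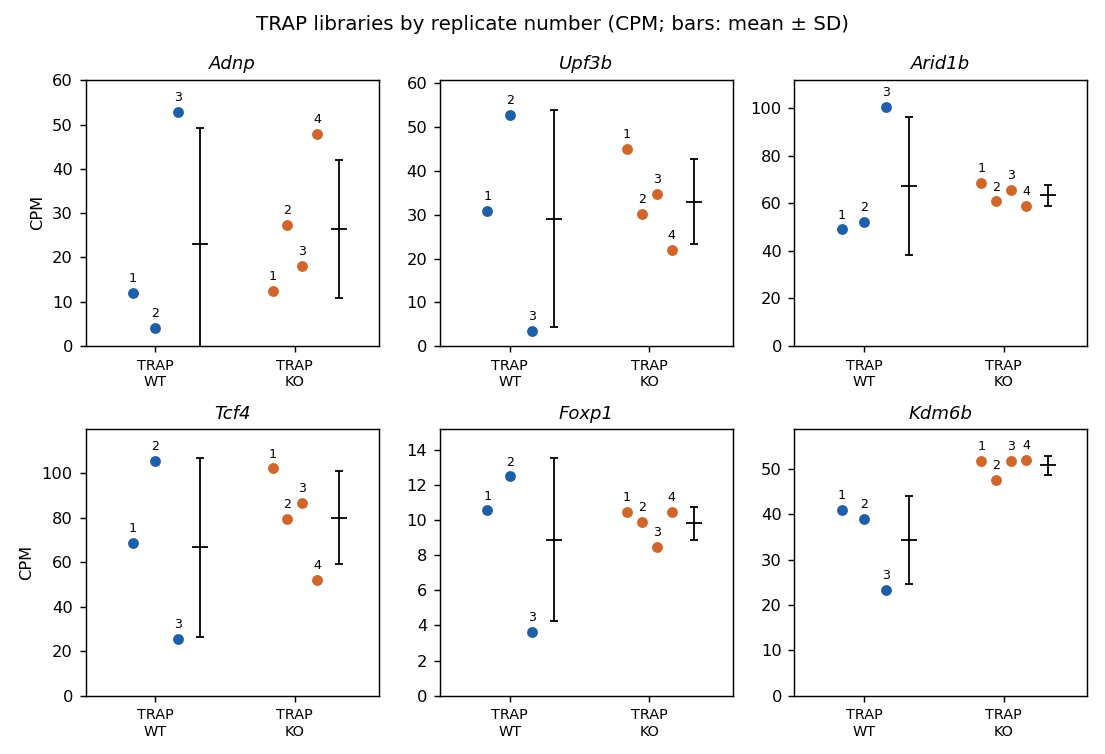
Levels (CPM, linear axis from 0) of 6 genes in the 3 TRAP WT libraries (blue) and 4 TRAP KO libraries (orange), with the replicate number above each point and the mean ± SD beside each group; the lower bar of Adnp in TRAP WT runs below 0 and is cut there. TRAP WT replicate 3 is the highest of its group for Adnp (52.9 CPM) and Arid1b (100.5 CPM) and the lowest for Upf3b (3.54 CPM), Tcf4 (25.5 CPM), Foxp1 (3.63 CPM) and Kdm6b (23.2 CPM).

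The start regions of the genes that lie at the 2 ends of the TRAP against input comparison are shown first, because they differ widely in their content of CG dinucleotides. RefSeq windows (assembly GRCm38.p6, the same genome as mm10) were found for 26 of the 33 genes. There was no entry for Chd2, Ash1l, Kdm6b, Auts2, Tcf4, Wac and Katnal2. Each line gives the 150 bases before the most upstream start in the RefSeq table, 5′ to 3′ on the gene's own strand, with every CG dinucleotide in capitals. For 7 of the 26 genes that start lies more than 1 kb inside the gene as GENCODE M21 draws it, among them Tcf20 (75.97 kb) and Phf21a (1.73 kb), so these stretches belong to internal starts. The first 3 genes (Kmt2c at chr5:25498784-25498933 on the minus strand, Med13l at chr5:118560569-118560718 on the plus strand and Phf21a at chr2:92185333-92185482 on the plus strand) had lower levels in TRAP than in input. The last 3 (Mef2c at chr13:83503884-83504033 on the plus strand, Tcf20 at chr15:82912135-82912284 on the minus strand and Dscam at chr16:97170736-97170885 on the minus strand) had higher levels in TRAP.
Kmt2c: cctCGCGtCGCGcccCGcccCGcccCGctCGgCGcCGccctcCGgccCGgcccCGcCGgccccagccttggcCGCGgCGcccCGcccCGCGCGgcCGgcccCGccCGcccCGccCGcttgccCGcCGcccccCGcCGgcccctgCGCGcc
Med13l: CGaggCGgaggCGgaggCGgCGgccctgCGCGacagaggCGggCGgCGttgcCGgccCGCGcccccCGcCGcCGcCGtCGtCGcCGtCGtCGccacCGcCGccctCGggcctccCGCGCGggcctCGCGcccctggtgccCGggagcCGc
Phf21a: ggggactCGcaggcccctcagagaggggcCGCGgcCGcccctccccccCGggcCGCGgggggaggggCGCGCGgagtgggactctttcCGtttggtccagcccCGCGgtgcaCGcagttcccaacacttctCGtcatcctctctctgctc
Mef2c: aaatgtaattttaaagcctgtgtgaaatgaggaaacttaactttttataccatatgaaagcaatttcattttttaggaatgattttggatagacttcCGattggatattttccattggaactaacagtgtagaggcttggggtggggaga
Tcf20: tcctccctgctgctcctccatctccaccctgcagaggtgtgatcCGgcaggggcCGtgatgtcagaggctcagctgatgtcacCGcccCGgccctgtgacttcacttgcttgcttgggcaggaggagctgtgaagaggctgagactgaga
Dscam: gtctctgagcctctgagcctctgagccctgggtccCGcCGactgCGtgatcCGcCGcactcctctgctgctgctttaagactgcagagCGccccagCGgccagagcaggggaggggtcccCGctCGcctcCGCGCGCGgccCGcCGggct

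The printed stretches of Kmt2c and Med13l each hold 32 CG dinucleotides, that of Mef2c holds 1 and that of the internal start of Tcf20 holds 4, while Phf21a and Dscam, which lie on opposite sides of the comparison, each hold 15. Over the full 250 bases before the same start, the count was 48 in Kmt2c and 51 in Med13l, a count reached by 0.285% and 0.111% of the 12612 tested genes with a window. Mef2c had 1 there, and its other starts had up to 6. The median over the 26 genes was 21, and it was also 21 over the 19 whose start is not more than 1 kb inside the gene, against 15 over all tested genes. The GC box GGGCGG, searched on both strands in the same 250 bases, was present in 17 of the 26 genes (65.4%) and in 33% of all 27025 genes with a window. That wider set includes genes that were not tested, and its median CG count was 6, against 15 over the tested genes. The share with a GC box among the tested genes alone was not computed. Across the 26 genes, the CG count and the TRAP against input log2 fold change in WT had a Spearman rho of -0.09, and across the 12612 tested genes it was 0.12. Over all tested genes the order was thus weak and positive. The 26 genes are too few to decide whether they have one.

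Most of the 33 genes were less abundant in TRAP than in input, and a few, led by Mef2c and Auts2, were more abundant. In WT, 6 genes were higher in TRAP, 19 were lower and 8 did not pass the test (edgeR quasi-likelihood, adjusted p under 0.05). Of all 16042 genes tested, 37% were higher and 38.5% were lower, 75.5% in all. In KO, 5 genes were higher, 21 were lower and 7 did not pass, beside 36.3% higher and 39.6% lower (75.9% in all) of all genes. The median log2 fold change over the 33 genes was -0.66 in WT and -0.67 in KO, against -0.09 and -0.11 over all genes tested. WT and KO share no library, but both contrasts come from 1 fit. That fit has 1 estimate of the spread over all 14 libraries, so the SE in KO also reflects the spread in WT. For Adnp in KO the SE was 0.57, and 0.36 without TRAP WT replicate 3. In both genotypes 5 genes were higher (Auts2, Mef2c, Tcf20, Wac and Dscam) and 19 were lower, and none was higher in one genotype and lower in the other. For neither these counts nor those by role below is the share of all genes that passed alike in both genotypes given. Such agreement is therefore not shown to be particular to the 33 genes. Cul3 passed only in WT, Rai1 and Tsc2 passed only in KO, and 6 genes passed in neither (Arid1b, Adnp, Upf3b, Naa15, Dyrk1a and Katnal2). When TRAP WT replicate 3 was left out, Adnp and Dyrk1a passed in both genotypes, and Arid1b, Rai1 and Tsc2 passed in WT, all lower in TRAP. The difference between the genotypes was tested by itself, and no gene passed that test (below). Without TRAP WT replicate 3, the WT counts were 5 higher and 24 lower, and without both libraries that stand apart they were 6 and 24 in WT and 6 and 23 in KO. Of all genes, 76% passed in WT without TRAP WT replicate 3. Without both libraries, 77.3% of all genes passed in WT and 80% in KO. When libraries were scaled by their totals alone, with no correction for composition, the median of all genes moved to -0.91 in WT and -0.85 in KO, and only Mef2c remained higher in TRAP among the 33. When a mean count of at least 50 was required of each gene, which left out Katnal2, 2 of the 33 were higher and 24 lower in each genotype. Of all genes tested at that setting, 79.2% passed in each genotype. The calls of Tcf20 (0.25 in WT, 0.15 in KO), Wac (0.011 and 0.080) and Dscam (0.18 and 0.15), and the WT call of Cul3 (0.067), were lost there. Adnp, Naa15 and Dyrk1a passed as lower in both genotypes at that setting, and Rai1 and Tsc2 did so in WT as well as KO.

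**Figure D2:**
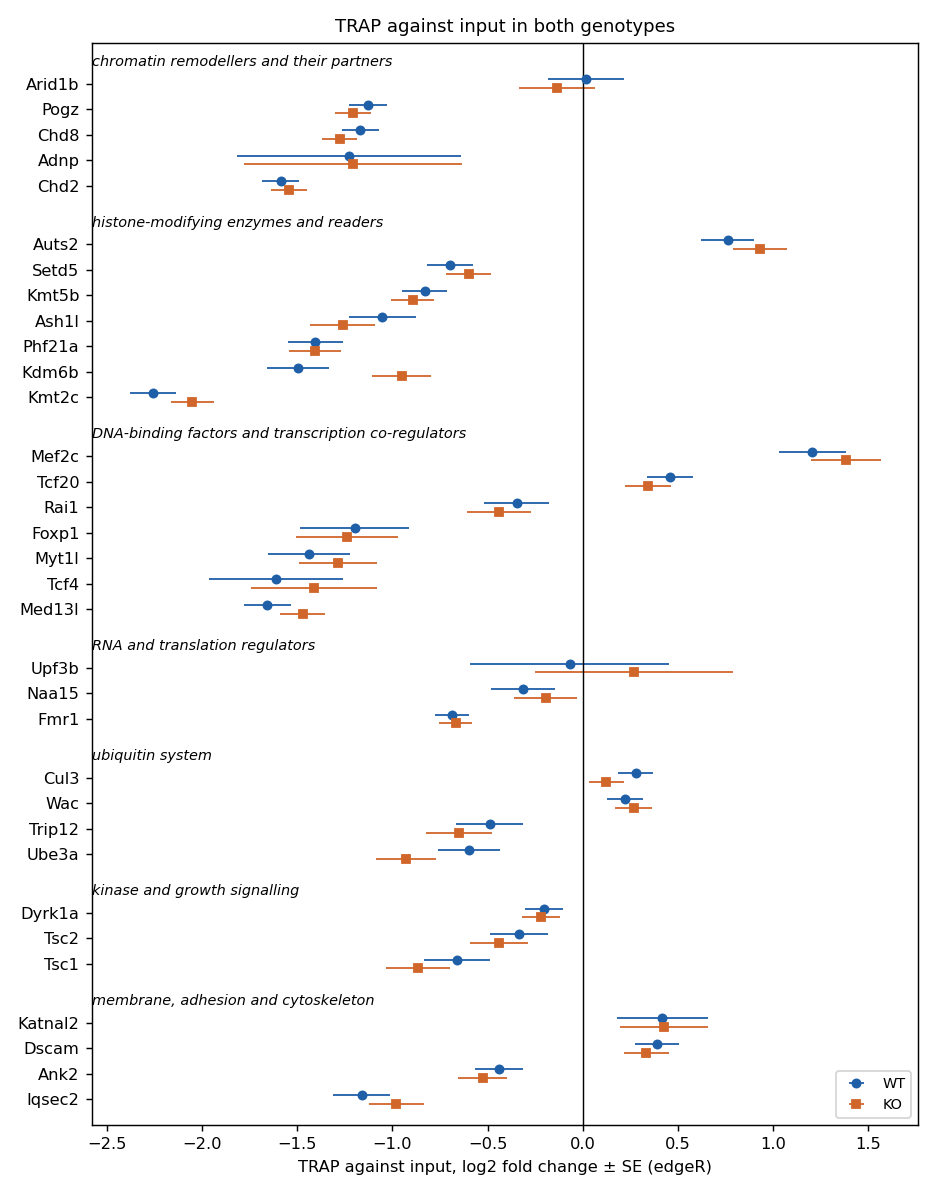
TRAP against input log2 fold change (x axis, ± SE from edgeR) of the 33 genes, ordered within 7 roles by the WT value, in WT (blue circles, 3 TRAP and 4 input libraries) and KO (orange squares, 4 TRAP and 3 input libraries). Values right of 0 are higher in TRAP; Mef2c (1.20 in WT, 1.38 in KO) lies farthest right and Kmt2c (-2.26 and -2.05) farthest left, and the WT and KO points of most genes lie within their error bars of each other.

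Among the chromatin remodellers and their partners, 3 of 5 were lower in TRAP in both genotypes and none was higher. Chd8, on chr14:52198151-52258042, minus strand, encodes an ATP-dependent remodeller that is among the genes most often hit by new variants in autism. It was at 78.2, 80.1, 76.2 and 78.0 CPM in input WT, 84.8, 80.6 and 90.0 CPM in input KO, 33.1, 37.5 and 33.1 CPM in TRAP WT and 36.6, 35.5, 35.9 and 30.9 CPM in TRAP KO. All TRAP libraries lay below all input libraries, and the TRAP level was 44.5% of input in WT (log2 fold change -1.17 ± 0.10 SE, adjusted p = 9.6e-08) and 41.3% in KO (-1.28 ± 0.09, adjusted p = 3.4e-08). Chd2, a relative of Chd8 on chr7:73426652-73541746, minus strand, was at 72.9, 71.9, 71.4 and 66.5 CPM in input WT and 78.8, 79.8 and 75.8 CPM in input KO. In TRAP it was at 23.3, 20.99 and 26.1 CPM in WT and 28.2, 26.1, 25.1 and 25.7 CPM in KO. That is 33.3% of input in WT (-1.59 ± 0.10, adjusted p = 6.0e-09) and 34.3% in KO (-1.54 ± 0.09, adjusted p = 6.7e-09), with no overlap between the fractions. Pogz, a zinc finger protein that binds heterochromatin protein HP1, was at -1.13 ± 0.10 in WT and -1.21 ± 0.09 in KO. The other two did not pass. Arid1b, a DNA-binding subunit of the BAF remodelling complex, was at 0.01 ± 0.20 in WT and -0.14 ± 0.20 in KO, and in WT its sign turned to -0.41 (adjusted p = 0.022) without TRAP WT replicate 3. In KO it was at -0.08 without both libraries that stand apart. Adnp, a homeodomain protein that works with the remodeller CHD4, was at -1.23 ± 0.59 and -1.21 ± 0.57, and without both libraries that stand apart it was at -2.86 in WT (adjusted p = 9.2e-06) and -1.56 in KO (adjusted p = 0.00018).

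Of the 7 histone-modifying enzymes and readers, 6 were lower in TRAP in both genotypes, and Auts2 was higher. Kmt2c, on chr5:25271795-25498855, minus strand, encodes a methyltransferase of histone H3 at enhancers and had the lowest ratio of the 33 genes in both genotypes. It was at 107, 113, 109 and 116 CPM in input WT and 136, 136 and 122 CPM in input KO, but at 25.03, 24.2 and 21.1 CPM in TRAP WT and 35.5, 34.2, 30.3 and 23.8 CPM in TRAP KO. Every TRAP library lay far below every input library, at a mean of 20.9% of input in WT (-2.26 ± 0.12, adjusted p = 1.8e-09) and 24.1% in KO (-2.05 ± 0.11, adjusted p = 3.1e-09). Its start region is the first of those printed above. Phf21a, a reader of unmethylated histone H3 in the LSD1 demethylase complex, was at -1.40 ± 0.14 in WT and -1.41 ± 0.14 in KO. Kdm6b, an H3K27 demethylase, was at -1.50 ± 0.16 in WT and -0.95 ± 0.15 in KO. The methyltransferase genes Ash1l (-1.05 ± 0.18 and -1.26 ± 0.17) and Kmt5b (-0.83 ± 0.12 and -0.89 ± 0.11) and the SET-domain gene Setd5 (-0.70 ± 0.12 and -0.60 ± 0.12) were lower too. Auts2, on chr5:131437333-132543220, minus strand, encodes a partner of a Polycomb complex and also acts on the cytoskeleton. It was at 64.1, 67.2, 62.2 and 61.8 CPM in input WT and 76.4, 65.8 and 73.7 CPM in input KO, against 106, 131 and 86.3 CPM in TRAP WT and 158, 121, 122 and 139.9 CPM in TRAP KO. All TRAP libraries lay above all input libraries. The TRAP level was 1.69-fold of input in WT (0.76 ± 0.14, adjusted p = 0.00019) and 1.91-fold in KO (0.93 ± 0.14, adjusted p = 4.2e-05), and with library totals alone the WT value was -0.06.

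The DNA-binding factors and co-regulators held the highest ratio of the 33, that of Mef2c, and 2 of the 4 lowest by the mean over the genotypes, those of Med13l and Tcf4. Mef2c, on chr13:83504017-83667079, plus strand, encodes a MADS-box factor that responds to neuronal activity and acts in synapse number. It was at 20.8, 23.5, 27.3 and 28.1 CPM in input WT and 26.5, 22.2 and 31.0 CPM in input KO, and at 53.3, 64.8 and 51.0 CPM in TRAP WT and 76.4, 60.1, 50.7 and 90.7 CPM in TRAP KO. The fractions did not overlap in either genotype. The TRAP level was 2.3-fold of input in WT (1.20 ± 0.18, adjusted p = 2.8e-05) and 2.61-fold in KO (1.38 ± 0.18, adjusted p = 1.1e-05). Tcf20, on chr15:82808447-82988103, minus strand, a nuclear co-regulator related to Rai1, was at 32.03, 34.8, 37.2 and 41.0 CPM in input WT, 42.8, 38.9 and 35.9 CPM in input KO, 43.1, 45.8 and 59.2 CPM in TRAP WT and 51.3, 47.5, 49.6 and 49.7 CPM in TRAP KO. The groups did not overlap within a genotype, and the difference was smaller, 0.46 ± 0.12 in WT (adjusted p = 0.0034) and 0.34 ± 0.12 in KO (adjusted p = 0.021). Without TRAP WT replicate 3, the highest of its group, the WT value was 0.28 (adjusted p = 0.037). In KO this call was lost when input KO replicate 3, TRAP KO replicate 1 or TRAP KO replicate 2 was left out, with values of 0.22 to 0.31. Rai1 itself, a chromatin-binding regulator of circadian genes, was at -0.35 ± 0.17 in WT and -0.44 ± 0.17 in KO, and it passed in KO only. Without TRAP WT replicate 3 it passed in WT too, at -0.68 ± 0.12 (adjusted p = 0.00022). The call in KO was lost without input KO replicate 1 or 3, or without TRAP KO replicate 2 or 4, at -0.36 to -0.45.

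Tcf4, on chr18:69343429-69687967, plus strand, encodes a basic helix-loop-helix factor whose loss causes Pitt-Hopkins syndrome. It was at 182, 209, 203 and 218 CPM in input WT and 228, 195 and 227 CPM in input KO, and at 68.8, 105.7 and 25.5 CPM in TRAP WT and 102, 79.4, 86.5 and 52.2 CPM in TRAP KO. The fractions were far apart although the TRAP libraries varied widely, and the TRAP level was 32.7% of input in WT (-1.61 ± 0.35, adjusted p = 0.00087) and 37.6% in KO (-1.41 ± 0.33, adjusted p = 0.0016). Without TRAP WT replicate 3 it was at -1.23 ± 0.24 in WT. Med13l, on chr5:118560330-118765438, plus strand, encodes a subunit of the kinase module of Mediator, the complex that links DNA-binding factors to RNA polymerase II. Its levels were 106, 104, 93.2 and 96.8 CPM in input WT and 107, 111 and 110.3 CPM in input KO, and 37.8, 33.3 and 24.9 CPM in TRAP WT and 37.2, 41.0, 35.4 and 40.4 CPM in TRAP KO. That is 31.7% of input in WT (-1.66 ± 0.12, adjusted p = 4.1e-08) and 36.1% in KO (-1.47 ± 0.12, adjusted p = 8.7e-08), with no overlap. Myt1l, a zinc finger repressor of non-neuronal genes, was at -1.44 ± 0.21 in WT and -1.28 ± 0.20 in KO. Foxp1, a forkhead repressor, was at -1.20 ± 0.28 and -1.24 ± 0.27, and at -0.82 ± 0.14 in WT without TRAP WT replicate 3.

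**Figure D3:**
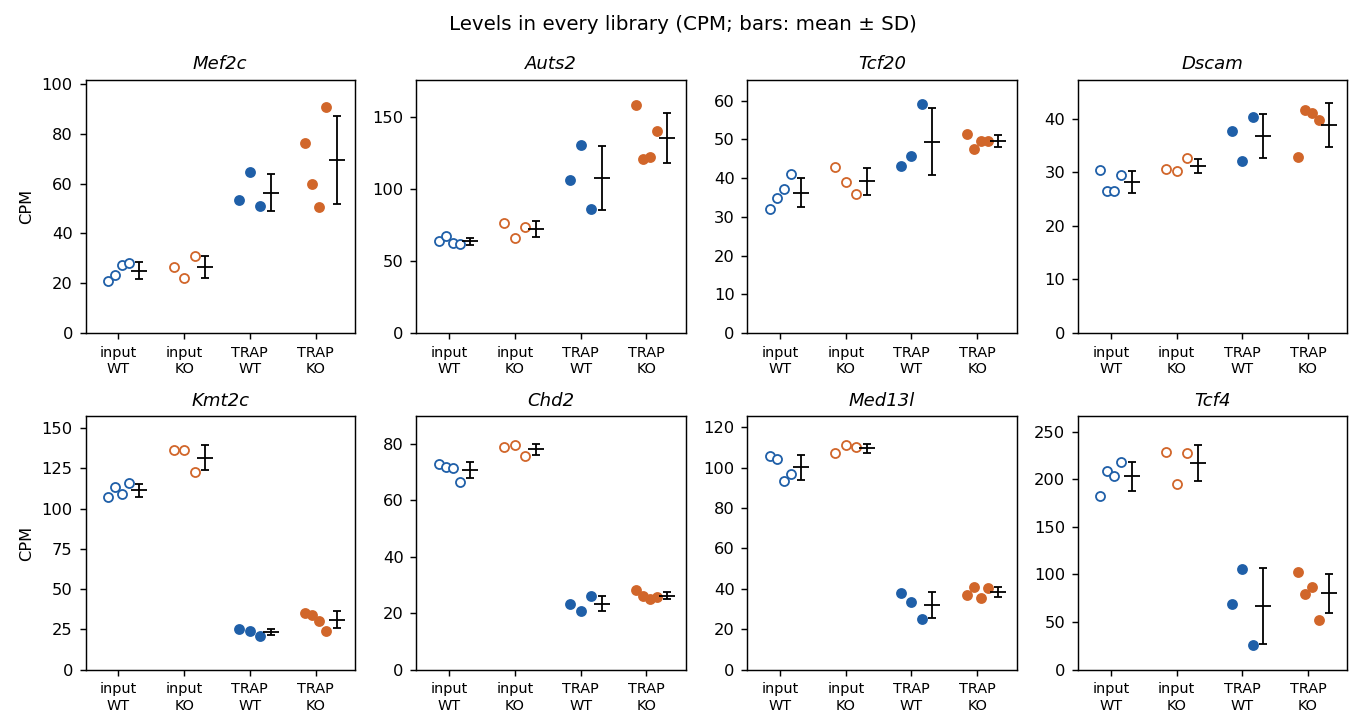
Levels (CPM, linear axes from 0) in all 14 libraries of the 4 genes with the highest and the 4 with the lowest mean of the WT and KO ratios among those that passed in the same direction in both genotypes; open circles are input, filled circles TRAP, blue WT, orange KO, with the mean ± SD beside each group. In the upper row the TRAP points of Mef2c and Auts2 lie above all input points, and in the lower row all TRAP points lie below all input points.

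Of the 3 RNA and translation regulators, only Fmr1 passed. Fmr1, on chrX:68678536-68717963, plus strand, was at 67.6, 68.3, 62.5 and 66.4 CPM in input WT and 70.6, 70.1 and 74.95 CPM in input KO, and at 42.9, 37.8 and 42.5 CPM in TRAP WT and 43.6, 47.4, 42.7 and 44.4 CPM in TRAP KO. The libraries of each group lay close together and the fractions did not overlap. TRAP was at 62.2% of input in WT (-0.69 ± 0.09, adjusted p = 8.6e-06) and 63% in KO (-0.67 ± 0.09, adjusted p = 9.4e-06). Upf3b, which takes part in the decay of messages with premature stops, was at -0.07 ± 0.52 in WT and 0.27 ± 0.52 in KO. Without both libraries that stand apart, Upf3b was higher in TRAP, at 0.48 in WT (adjusted p = 0.026) and 0.40 in KO (adjusted p = 0.041), and without TRAP WT replicate 2 it was lower in WT, at -1.22 (adjusted p = 0.0498). Naa15, a subunit of an N-terminal acetyltransferase, was at -0.31 ± 0.17 and -0.19 ± 0.17, and it passed in WT without TRAP WT replicate 2 (-0.62, adjusted p = 0.0028). Without TRAP WT replicate 3 its WT value was nearer to no difference, at -0.12 ± 0.12 (adjusted p = 0.39).

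In the ubiquitin system, the ligases UBE3A and TRIP12 lay below input and the cullin and WAC genes slightly above. Ube3a, on chr7:59228750-59310837, plus strand, is imprinted in neurons, where the maternal copy is the one expressed, and its loss causes Angelman syndrome. It was at 40.6, 43.9, 41.4 and 45.9 CPM in input WT and 55.3, 46.0 and 58.0 CPM in input KO, and at 25.2, 35.9 and 23.4 CPM in TRAP WT and 31.2, 25.9, 22.1 and 31.8 CPM in TRAP KO. No TRAP library reached the lowest input library. The value was -0.60 ± 0.16 in WT (66.1% of input, adjusted p = 0.0040) and -0.93 ± 0.16 in KO (52.6%, adjusted p = 0.00011). Trip12 was at -0.49 ± 0.18 in WT and -0.65 ± 0.17 in KO. Its WT call was lost without TRAP WT replicate 1 (-0.42) or replicate 2 (-0.34), its groups overlapped in WT, and without TRAP WT replicate 3 it was at -0.84 ± 0.12 (adjusted p = 3.6e-05). Cul3, the scaffold of a ubiquitin ligase, was at 0.28 ± 0.09 in WT (adjusted p = 0.014) and 0.12 ± 0.09 in KO (adjusted p = 0.24). Wac, a partner of the ligase that marks histone H2B, was at 0.22 ± 0.10 and 0.27 ± 0.10. The adjusted p of Wac in WT was 0.0498, and that call was lost when any input library or any of 4 TRAP libraries was left out, with values of 0.15 to 0.24. Without both libraries that stand apart the WT value was 0.14. The call in KO was lost without any of the 3 input KO libraries or without TRAP KO replicate 2 or 4, at 0.21 to 0.27.

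Among the growth regulators, Tsc1 was lower in TRAP in both genotypes. Tsc1, on chr2:28640993-28691172, plus strand, was at 52.8, 52.6, 47.8 and 51.8 CPM in input WT and 56.2, 57.1 and 51.0 CPM in input KO, and at 27.2, 24.0 and 45.2 CPM in TRAP WT and 27.6, 30.2, 31.6 and 30.2 CPM in TRAP KO. The high TRAP WT value is that of replicate 3, and it still lay below every input library. The ratio was -0.66 ± 0.17 in WT (63.3% of input, adjusted p = 0.0032) and -0.86 ± 0.17 in KO (54.9%, adjusted p = 0.00038). Leaving that library out gave -1.04 ± 0.10 in WT (adjusted p = 4.8e-07). Tsc2, on chr17:24595816-24632676, minus strand, was at 79.3, 83.5, 80.3 and 77.9 CPM in input WT, 84.8, 78.9 and 90.2 CPM in input KO, 65.0, 47.3 and 76.1 CPM in TRAP WT and 48.2, 63.0, 65.5 and 73.3 CPM in TRAP KO. The fractions of Tsc2 did not overlap, but the spread in TRAP was wide. Its ratio was -0.33 ± 0.15 in WT (adjusted p = 0.061) and -0.44 ± 0.15 in KO (adjusted p = 0.017), and in WT it passed without TRAP WT replicate 3 (-0.52, adjusted p = 0.0072) and without TRAP KO replicate 1 or 2 (-0.37 and -0.38). The KO call was lost without input KO replicate 3 (-0.43, adjusted p = 0.059). The dual-specificity kinase gene Dyrk1a was at -0.20 ± 0.10 in WT and -0.22 ± 0.10 in KO. Without TRAP WT replicate 3 it passed in both, at -0.30 ± 0.09 (adjusted p = 0.0093) and -0.24 ± 0.08 (adjusted p = 0.013). It also passed in WT without TRAP KO replicate 1 (-0.23) and in KO without TRAP KO replicate 4 (-0.28) or TRAP WT replicate 2 (-0.24).

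In the last group, Iqsec2, an exchange factor for ARF GTPases at excitatory synapses, was at -1.16 ± 0.15 in WT and -0.98 ± 0.15 in KO. Ank2, which encodes ankyrin-B and links membrane proteins to spectrin, was at -0.44 ± 0.13 and -0.53 ± 0.13. Dscam, on chr16:96587452-97171113, minus strand, a cell adhesion molecule of the immunoglobulin family, was at 30.4, 26.4, 26.4 and 29.4 CPM in input WT and 30.6, 30.2 and 32.7 CPM in input KO. In TRAP it was at 37.8, 32.2 and 40.2 CPM in WT and 32.8, 41.6, 41.1 and 39.8 CPM in KO. The groups came close to each other without overlap, and the ratio was 0.39 ± 0.12 in WT (adjusted p = 0.0077) and 0.33 ± 0.12 in KO (adjusted p = 0.019). The call in KO was lost without input KO replicate 1 or 2 or without TRAP KO replicate 2, at 0.25 to 0.32, and both calls were lost with a mean count of at least 50, as given above. Katnal2, a relative of the microtubule-severing protein katanin, was the weakest of the 33, between 1.00 and 1.90 CPM in every library, and its ratio of 0.42 ± 0.24 in WT and 0.42 ± 0.23 in KO did not pass.

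Set against each other per kilobase of the longest transcript, the levels in TRAP WT spanned from 33.3 ± 2.03 CPM per kb for Cul3 to 0.79 ± 0.18 CPM per kb for Katnal2. Wac (25.3 ± 1.79) and Ank2 (18.0 ± 3.79) followed Cul3, and Auts2 was the fourth at 14.5 ± 2.99 CPM per kb, within its spread of Dyrk1a at 12.4 ± 1.14 CPM per kb. Kmt2c (1.57 ± 0.139) and Foxp1 (1.24 ± 0.649) stood just above Katnal2, and these 2 did not differ beyond their spread. In input WT the order was different at the top, with Cul3 (27.8 ± 2.03), Ank2 (24.7 ± 1.73), Iqsec2 (23.9 ± 0.964) and Tcf4 (23.7 ± 1.75) close together, and Ank2, Iqsec2 and Tcf4 within their spread of each other. Mef2c was at 3.97 ± 0.544 CPM per kb in input WT and 8.98 ± 1.18 CPM per kb in TRAP WT, close to Fmr1 at 9.31 ± 0.633 CPM per kb in TRAP WT, although Fmr1 was at 15.02 ± 0.589 CPM per kb in input WT.

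The 33 genes have long transcripts, and long transcripts as a class were lower in TRAP. The median length of their longest transcript was 7.202 kb (2.04 to 14.97 kb), and 31 of the 33 were longer than the median tested gene at 3.33 kb. Over all genes, the TRAP against input log2 fold change had a Spearman rho with length of -0.27 in WT and -0.29 in KO. The 1434 tested genes of 6.13 to 8.74 kb, the interquartile range of the 33, had a median of -0.76 in WT and -0.80 in KO, with 59.8% lower and 18.9% higher in TRAP in WT. The medians of -0.66 and -0.67 of the 33 genes were thus near those of genes of like length. A further fit used an offset that removes, library by library, the smooth trend with length. It also removes whatever else runs with length, so the part of length itself was not tested.

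With that offset the median of the 33 genes was 0.06 in WT and 0.08 in KO, with 13 higher and 10 lower in WT and 11 higher and 10 lower in KO, beside 41.5% higher and 33.2% lower of all genes in WT and 39.3% and 34.4% in KO. The genes at both ends kept their direction. Auts2, Mef2c, Tcf20, Wac and Dscam were higher with and without the offset in both genotypes, and Mef2c moved to 1.86 ± 0.19 in WT and 2.002 ± 0.20 in KO. Lower in both genotypes with and without the offset were 9 genes: Chd8, Chd2, Pogz, Kmt2c, Phf21a, Myt1l, Med13l, Fmr1 and Iqsec2. Of these, Kmt2c was at -0.96 ± 0.14 in WT and -0.73 ± 0.13 in KO, and Chd8 was reduced to -0.27 ± 0.11 and -0.39 ± 0.11. Trip12 and Ank2 turned from lower to higher in both genotypes, Ank2 to 0.81 ± 0.10 in WT, and Arid1b (1.11 ± 0.17 in WT), Naa15 (0.49 ± 0.19) and Dyrk1a (0.37 ± 0.10) became higher. Ube3a turned to 0.43 ± 0.18 in WT (adjusted p = 0.037) and 0.09 ± 0.18 in KO, Tsc1 was at 0.13 ± 0.15 and -0.07 ± 0.15, and Tcf4 no longer passed, at -0.67 ± 0.36 and -0.51 ± 0.36. Foxp1 no longer passed either, at -0.42 ± 0.30 in WT and -0.51 ± 0.29 in KO. Setd5 (0.0041 and 0.079) and Ash1l (0.061 and -0.11) also lost their calls in both genotypes. Kmt5b lost its call in WT (-0.21 ± 0.10) and Kdm6b in KO (-0.28 ± 0.17).

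**Figure D4:**
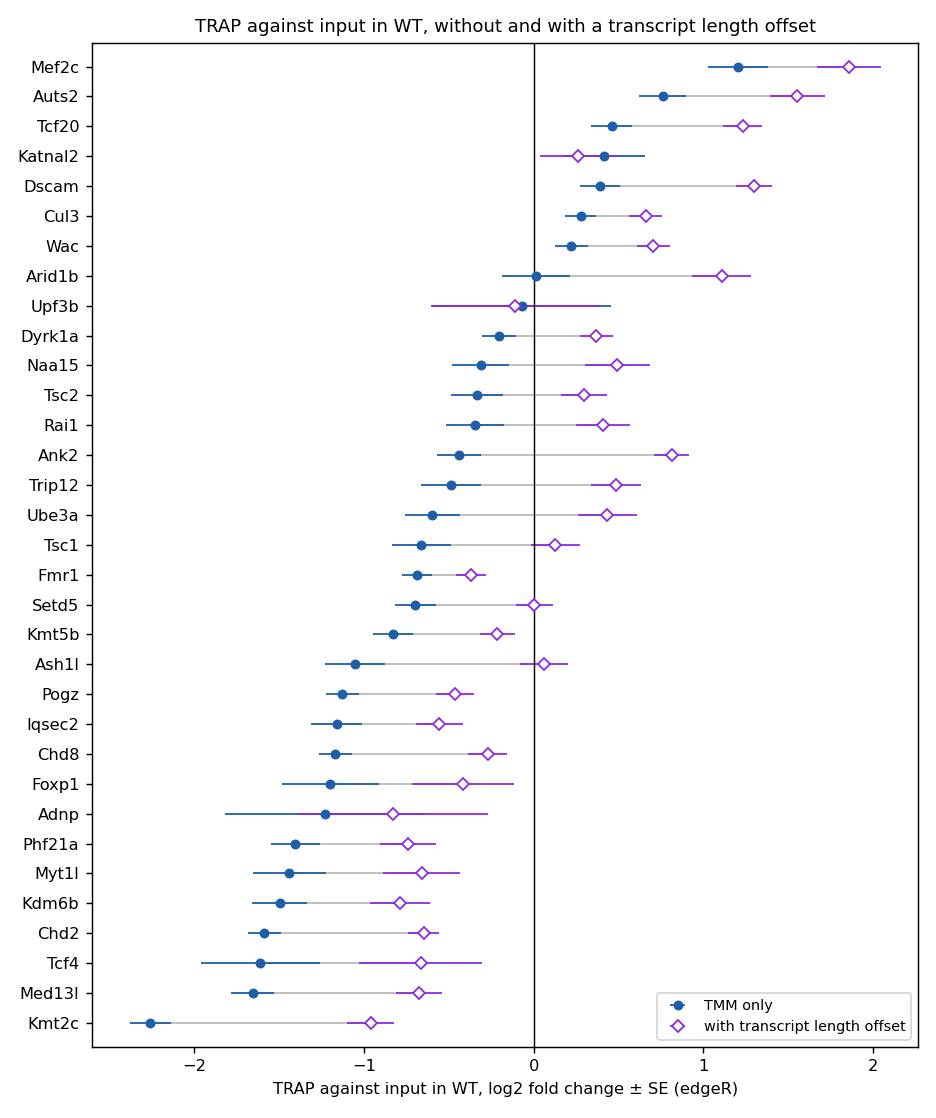
TRAP against input log2 fold change in WT (x axis, ± SE from edgeR) of the 33 genes with TMM factors only (filled circles) and with the transcript length offset added (open diamonds), 1 gene per line in the order of the first value. All but Katnal2 and Upf3b move to the right; Mef2c stays farthest right (1.20 and 1.86) and Kmt2c farthest left (-2.26 and -0.96).

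The other genes of these pathways were read from 12 lists written by pathway or gene family, and their counts in WT stand beside 37% higher and 38.5% lower of all genes (41.5% and 33.2% with the length offset). Of 17 histone lysine demethylase genes, 16 were lower in TRAP in WT and none was higher, with Kdm6a (-2.02 ± 0.13), the X-linked relative of Kdm6b, and Jmjd1c (-1.99 ± 0.10) the lowest. With the length offset, 8 of the 17 were lower and none higher. Of 20 histone lysine methyltransferase genes, 14 were lower and 2 higher, and with the offset 10 and 6. Kmt2a (-2.53 ± 0.22) and Kmt2d (-2.41 ± 0.27), of the same family as Kmt2c, were the lowest, and Kmt5a (1.31 ± 0.11), which methylates histone H4, was the highest. Of the 7 other CHD genes, 5 were lower and 1 was higher, and with the offset 3 and 2. Chd7 (-2.05 ± 0.28) and Chd1 (-1.92 ± 0.13) lay below Chd8, and Chd3 (0.95 ± 0.14), a subunit of the NuRD repressor complex, was higher.

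The 27 BAF complex genes were split, with 10 higher, 9 lower and 8 that did not pass, near the shares of all genes, and with the offset 15 were higher and 6 lower. Bcl11a stood at 20.4 CPM in input WT and 235 CPM in TRAP WT (3.54 ± 0.13), Bcl7b was at 1.33 ± 0.11, and Dpf3 (-2.63 ± 0.16) and Arid2 (-1.37 ± 0.13) were lowest. Paralogs of the member transcription factors lay on both sides. Foxp4 (3.02 ± 0.13) and Foxp2 (2.16 ± 0.23), both known Purkinje cell forkhead genes, were higher in TRAP, whereas Foxp1 was lower. With the length offset Foxp1 did not pass in either genotype. St18 (-2.88 ± 0.15) and Myt1 (-2.63 ± 0.21), the other genes of the Myt1l family, were lower, as was Myt1l. Of 9 tested genes in that list, 2 were higher and 4 lower (4 and 4 with the offset). Of 32 Mediator genes 20 were higher and 9 lower (18 and 7 with the offset). The core subunits Med31 (2.47 ± 0.17) and Med30 (1.90 ± 0.10) were highest, and Med12 (-2.06 ± 0.31) and Med13 (-1.58 ± 0.16), which belong to the same kinase module as Med13l, were lowest.

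Of 27 genes of the TSC and mTOR pathway, 15 were higher and 7 lower in TRAP in WT (18 and 5 with the offset), while Tsc1 was lower. Rheb, the GTPase that the TSC complex switches off, rose from 136 CPM in input WT to 837 CPM in TRAP WT (2.62 ± 0.13), and Tbc1d7, the third subunit of the TSC complex, was at 1.73 ± 0.10. Pik3r1 (-1.36 ± 0.12), a PI3-kinase subunit, was among the lower genes. Of 9 partners of FMRP, 4 were higher and 2 lower (5 and 2 with the offset), with Eif4e (1.14 ± 0.10), the cap-binding protein, and Fxr2 (0.81 ± 0.11), a paralog of Fmr1, above input and Cyfip1 (-1.13 ± 0.14) below. Of 15 genes of nonsense-mediated decay, 6 were higher and 5 lower (7 and 5 with the offset), from Smg1 (-2.64 ± 0.15), the kinase of that pathway, to Magohb (1.81 ± 0.23). N-terminal acetyltransferase genes were mostly higher (7 of 11, with 1 lower, and 8 and 0 with the offset), led by Naa20 (2.40 ± 0.12) and Naa38 (2.27 ± 0.11). Among 20 cullin and HECT-type ligase genes, 7 were higher and 10 lower, and this turned to 13 higher and 2 lower with the offset. Rnf7 (2.01 ± 0.12), the RING partner of cullins, and Ube3b (1.45 ± 0.13) were the highest, and Nedd4l (-2.16 ± 0.19) and Herc1 (-1.01 ± 0.14) the lowest. With the offset Herc1 turned to 0.27 in WT, and Nedd4l was at -1.33. Of 24 tested paralogs of the remaining members, 9 were higher and 11 lower (11 and 8 with the offset). Dyrk3 (2.83 ± 0.26) and Iqsec3 (1.93 ± 0.21) were high, unlike Dyrk1a and Iqsec2, and Dscaml1 (-2.39 ± 0.22) was low, unlike Dscam. All of the genes named from these lists had the same direction in KO.

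The second question of the design was whether loss of Astn2 changed the levels of these genes in the TRAP fraction or in whole cerebellum. In TRAP no gene of the 33 passed the test, beside 1 of 14145 genes tested (0.00707%). At an unadjusted p under 0.05, edgeR gave 1 of the 33 (1.5% of all genes), and DESeq2 called none after adjustment. That gene was Kdm6b, at 40.9, 38.9 and 23.2 CPM in TRAP WT and 51.7, 47.6, 51.7 and 52.0 CPM in TRAP KO. All KO libraries lay above all WT libraries, which was the case, in either direction, for 4.56% of all genes and for no other gene of the 33. The log2 fold change was 0.56 ± 0.21 (edgeR unadjusted p = 0.028, adjusted p = 1.00), and without TRAP WT replicate 3, the lowest of the libraries, it was 0.35. In input Kdm6b was at 107, 103, 85.6 and 89.7 CPM in WT and 98.7, 99.1 and 104 CPM in KO, a difference of -0.003 ± 0.08. Next by unadjusted p came Kmt2c, at 0.35 ± 0.16 (edgeR unadjusted p = 0.063, adjusted p = 1.00), and Auts2, at 0.33 ± 0.19 (unadjusted p = 0.13, adjusted p = 1.00). Their TRAP values in WT and KO, given above, overlapped.

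In whole cerebellum the same comparison again gave no call among the 33, beside 3 of 15997 genes (0.0188%), but the spread was smaller and the estimates leaned to 1 side. At an unadjusted p under 0.05, edgeR gave 6 of the 33, all higher in KO, beside 13.7% of all genes in either direction. Ube3a led, at 0.33 ± 0.08 (25.8% higher, edgeR unadjusted p = 0.0037, adjusted p = 0.20), with all 3 KO libraries (46.0 to 58.0 CPM) above the highest WT library at 45.9 CPM. Ash1l was at 103.3, 103.3, 109 and 117 CPM in input WT and 137, 122 and 137 CPM in input KO. Its log2 fold change was 0.29 ± 0.08 (edgeR unadjusted p = 0.0052, adjusted p = 0.22). Trip12 was at 102, 112, 113 and 111 CPM in WT and 129, 115 and 132 CPM in KO, a difference of 0.21 ± 0.07 (edgeR unadjusted p = 0.011, adjusted p = 0.25). Myt1l (0.25 ± 0.08), Cul3 (0.22 ± 0.08) and Kmt2c (0.19 ± 0.08) were the other three. DESeq2 called Ube3a and Ash1l (adjusted p = 0.039 for each), and without input KO replicate 2, the lowest KO library for Ube3a, edgeR called Ube3a (0.40, adjusted p = 0.047). Both settings also called more of all genes, 1.83% with DESeq2 and 0.982% without that library, against 0.0188% in the main fit.

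The direction of the estimates was shared by most of the 33 genes in both fractions. In TRAP 27 of the 33 were positive, with a median of 0.11, and in input 27 of the 33 were positive, with a median of 0.09. Of all genes tested, 50.3% were positive in TRAP and 47.8% in input, with medians of 0.00 and -0.01. In input, 11 of the 33 had all KO libraries above all WT libraries and none had the reverse, against 7.78% and 3.66% of all genes. Length moved with this too. The KO against WT log2 fold change had a Spearman rho with transcript length across genes of 0.18 in TRAP and 0.22 in input, and genes of 6.13 to 8.74 kb had medians of 0.07 in TRAP and 0.07 in input. Some marker lists moved in input as well, with no gene called in any of them. The median was -0.60 over 8 endothelial markers (4 at an unadjusted edgeR p under 0.05), -0.28 over 6 RNAs that stay in the nucleus (3) and 0.16 over 12 Purkinje cell markers (4). At the same threshold there were 4 of 10 granule cell markers, 3 of 10 astroglia markers and 2 of 8 interneuron markers. The medians of these lists were 0.01, 0.04 and 0.06. The summed level of the Purkinje cell list was 6901 to 7373 CPM in input WT and 7345 to 8393 CPM in input KO, that of the endothelial list 23.4 to 34.1 and 15.7 to 24.2 CPM, and that of the nuclear list 2189 to 2866 and 1852 to 2888 CPM. These sums are not adjusted for sex, and the nuclear list includes Xist. The part of length and of these lists in the lean of the 33 genes was not tested.

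**Figure D5:**
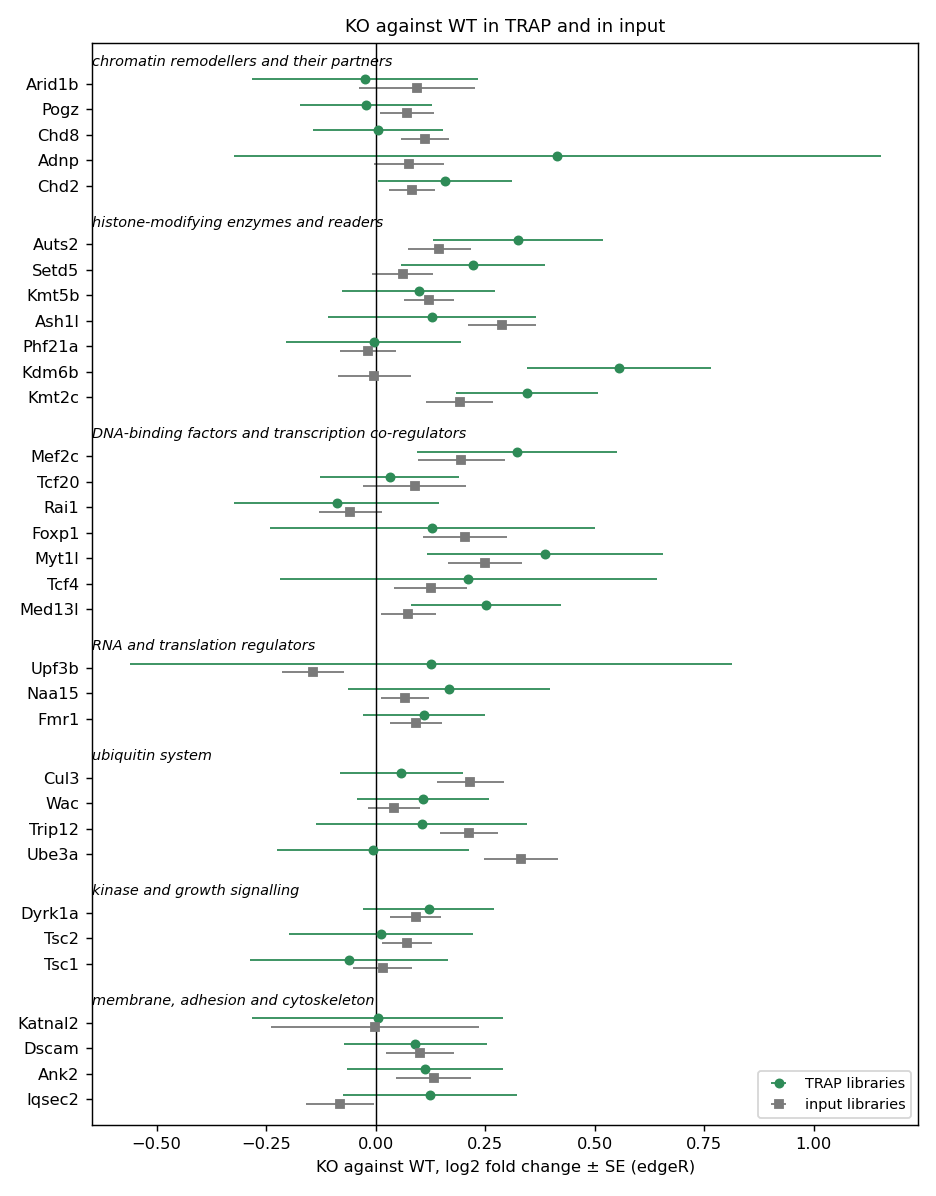
KO against WT log2 fold change (x axis, ± SE from edgeR) of the 33 genes in the 7 TRAP libraries (green circles) and the 7 input libraries (grey squares), by role in the order of the TRAP against input plot. Most points lie right of 0 (27 of 33 in each fraction), the bars are wider in TRAP, and Kdm6b in TRAP (0.56) and Ube3a in input (0.33) lie farthest right of their fraction among the points that did not overlap between genotypes.

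Whether the TRAP against input ratio itself differed between KO and WT was tested as a genotype by fraction interaction. No gene of the 33 passed, and none did of all 16042 (0%). At an unadjusted p under 0.05, edgeR gave 1 of the 33 (Kdm6b) and 430 of all genes (2.68%). The ratio of Kdm6b was higher in KO by 0.55 ± 0.22 (edgeR unadjusted p = 0.029, adjusted p = 1.00), and by 0.32 without TRAP WT replicate 3. Ube3a followed at -0.33 ± 0.22 (edgeR unadjusted p = 0.17, adjusted p = 1.00) and Kmt2c at 0.21 ± 0.16 (unadjusted p = 0.21, adjusted p = 1.00). The median over the 33 genes was 0.00 and 16 of 33 were positive. For Fmr1 the difference between the genotypes was 0.02 ± 0.12, for Chd8 -0.11 ± 0.13, for Mef2c 0.18 ± 0.25, for Tsc1 -0.20 ± 0.24 and for Tsc2 -0.11 ± 0.22. For each of these 5 genes the SE was larger than the estimate.

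An exon of 15 of the 33 genes overlaps an exon of a gene on the opposite strand in the GENCODE M21 annotation. Among these are Ube3a with the antisense transcript Snhg14, Ash1l with Dap3, Tsc2 with Pkd1, Rai1 with Srebf1 and Kdm6b with Kdm6bos. The others are Kmt2c, Chd2, Chd8, Med13l, Myt1l, Kmt5b, Tcf20, Dscam, Wac and Ank2. How the counting treated strand is not given in the sources used here, so the counts of these genes are uncertain to that extent, Ube3a, Ash1l and Kdm6b included. This also holds for genes at both ends of the TRAP against input comparison, namely Kmt2c, Chd2, Med13l, Tcf20 and Dscam. The 18 other genes, among them Fmr1, Mef2c, Auts2, Tcf4, Tsc1 and Cul3, have no such overlap.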

How the data were processed

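RNA of 14 libraries from mouse cerebellum was sequenced by the authors, who deposited 1 table of counts per gene. Per the submitters' processing notes, Salmon 0.8.2 and the genome build mm10 were used, with no role given. The counts are whole numbers, as deposited, with Entrez gene numbers; the annotation, the strand setting and any rounding are not given in the sources used here. A RefSeq gene table (GRCm38.p6) gave a symbol for 24045 of 24100 genes.

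Groups, sex and replicate numbers came from the labels, and nothing there says which libraries came from the same animal, so p-values measure only the spread between these libraries. No pair of libraries within a group agreed within sampling noise. Tests were edgeR 4.0.16 quasi-likelihood tests (R 4.3.3), two-sided, with TMM factors, filterByExpr, sex as covariate and Benjamini-Hochberg adjustment over all genes tested at 0.05. TRAP against input and the interaction were fitted in all 14 libraries, and genotype in the 7 libraries of each fraction. The SE was computed from the log2 fold change and its F statistic, as the size of the first over the root of the second. Length is that of the longest GENCODE M21 transcript, known for 99.1% of genes, and the length offset is a loess curve (span 0.3) per library. The scripts were tested on simulated data.

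The members, lists and naming rule were chosen with earlier results of these data known. All 33 genes are accounted for. Values in every library are given for the 4 highest and 4 lowest mean ratios among genes that passed alike in both genotypes, the 3 smallest unadjusted p of each genotype contrast and of the interaction, and Fmr1, Tsc1, Tsc2, Chd8, Ube3a and Mef2c. From each list, at most 2 genes in each direction are named, those farthest from 0 in WT among genes past the threshold with a mean log2(CPM + 1) of at least 3. Of the genes this rule selects, 1 is not reported here.

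Alternatives were DESeq2 1.42.0 size factors and its Wald test, library totals, no filter, a mean count of at least 50, no sex covariate, each library left out, an adjusted p under 0.1, all 14 libraries in 1 fit for genotype, a replicate block, and the length offset alone and with the block. Leaving out TRAP WT replicate 3 and TRAP KO replicate 4 together was added after seeing the data.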

Additional observations from a re-analysis of the deposited data

Results flagged for a closer look

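In groups of 4 libraries, the lowest or highest library was compared with its nearest neighbour as a share of the group's range, in 66 values (33 genes in input WT and in TRAP KO). Chance alone gives about 1 such library in 20 values, and 2 were found. Trip12 was at 102 CPM in input WT replicate 1, against 111 to 113 CPM in the other three, a gap of 0.899 of the range. Kdm6b was at 47.6 CPM in TRAP KO replicate 2, against 51.7 to 52.0 CPM in the other three, a gap of 0.917 of the range.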

How the results depend on the processing

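In the TRAP against input contrasts, 727 of 824 values of single genes in WT and 739 of 824 in KO kept their direction and their side of the threshold over the alternatives, and 36 and 24 turned in sign, of which 11 and 4 were in genes that passed neither before nor after. With library totals alone, 1 gene was higher and 29 lower in each genotype, and Auts2 in WT (-0.062), Arid1b in WT (-0.81), Cul3 (-0.54 in WT, -0.61 in KO), Dscam (-0.43, -0.40), Tcf20 (-0.36, -0.40), Wac (-0.60, -0.47), Katnal2 (-0.40, -0.31) and Upf3b in KO (-0.47) turned. Of all genes, 80.6% passed in WT and 79.8% in KO at that setting. With a mean count of at least 50, 2 genes were higher in WT and 2 in KO, and Arid1b in WT (-0.20) and Cul3 in KO (-0.065) turned. With the length offset, 13 were higher and 10 lower in WT and 11 and 10 in KO, and the sign turned for Ank2 (0.81 in WT, 0.76 in KO), Dyrk1a (0.37, 0.32), Naa15 (0.49, 0.58), Rai1 (0.41, 0.32), Setd5 (0.0041, 0.079), Trip12 (0.48, 0.35), Tsc2 (0.30, 0.17) and Ube3a (0.43, 0.091), in WT for Ash1l (0.061) and Tsc1 (0.13), and in KO for Arid1b (1.00). Leaving out 1 library at a time gave 5 to 6 higher and 18 to 24 lower in WT, and 2 to 5 higher and 19 to 23 lower in KO. Of all genes, 71.5% to 76% then passed in WT and 69.4% to 80.3% in KO. Arid1b in WT turned to -0.41 without TRAP WT replicate 3 and to -0.39 without TRAP KO replicate 4 as well, and to between -0.030 and -0.0044 in 5 other cases, and Upf3b in WT to 0.46 without the first and 0.48 without both, while without TRAP WT replicate 2 it was at -1.22. For these changes the cause was not tested.

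Whether replicate numbers pair the libraries is not given in the labels, and their values did not settle it. The main fit used no pairing. Libraries of the same number in input and TRAP had correlations of their deviations from the group means of 0.09 to 0.24 in WT and -0.04 to 0.20 in KO. For different numbers these were -0.18 to 0.12 in WT and -0.20 to 0.305 in KO. Between WT and KO, same-number correlations were -0.11 to -0.02 in TRAP and -0.08 to 0.15 in input. For different numbers these were -0.25 to 0.33 in TRAP and -0.20 to 0.23 in input. With the replicate block, over 12 libraries for the fractions, 5 genes of the 33 were higher and 20 lower in WT and 3 and 21 in KO. None of the 33 passed by genotype or in the interaction. Of all genes, 72.5% passed between the fractions in WT and 71.5% in KO. The block lost the calls of Wac (0.24 in WT, 0.21 in KO) and, in KO, of Rai1 (-0.37) and Dscam (0.32), and Adnp passed in both (-1.86, -1.61). With the block and the length offset, 11 were higher and 11 lower in WT and 10 and 10 in KO, and the sign turned for Ank2 (0.84 in WT, 0.74 in KO), Dyrk1a (0.35, 0.26), Naa15 (0.41, 0.55), Rai1 (0.38, 0.40), Trip12 (0.44, 0.29), Tsc2 (0.25, 0.11) and Ube3a (0.41, 0.043), in WT for Ash1l (0.053) and Tsc1 (0.091), and in KO for Arid1b (1.09). Of all genes, 71.2% passed in WT and 68.9% in KO there.

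For genotype, no gene of the 33 passed in TRAP or in the interaction under any alternative run, and in input 2 passed with DESeq2's Wald test and 0 to 1 with 1 library left out. Of all genes, 1 passed in TRAP, 3 with the Wald test, 2 with all 14 libraries in 1 fit and 1 to 2 with 1 library left out. In input 3 of all genes passed, 5 with DESeq2 size factors, 23 with no filter, 292 with the Wald test, 15 at an adjusted p under 0.1, 158 without input KO replicate 2 and 1 without input KO replicate 3 or input WT replicate 1 or 2. In the interaction 1 of all genes passed with the Wald test. The median SE of the 33 genotype estimates was 0.20 in TRAP and 0.07 in input. Katnal2 had 26 to 93 counts a library, so its values are the least precise in counting.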
